A study of Mus musculus with 12 samples.

Results

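Phototransduction shutoff and calcium feedback was examined through 10 genes of the 56748 in the deposited table, Grk1, Sag, Rgs9, Gnb5, Rgs9bp, Rcvrn, Guca1a, Guca1b, Gucy2e and Gucy2f, which were picked by gene name for their known roles. The choice was made with earlier results of these data known. After light activates rhodopsin, rhodopsin kinase phosphorylates it and arrestin binds and silences it, while a complex of an RGS protein, a G protein beta subunit and a membrane anchor speeds GTP hydrolysis by transducin. The falling calcium that follows light is read by recoverin, which releases the kinase, and by guanylate cyclase-activating proteins, which turn on the retinal guanylate cyclases that restore cGMP and reopen the channels. Loss of function in several of these genes prolongs the rod response or causes retinal disease.

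Shp2, the tyrosine phosphatase encoded by Ptpn11, was deleted in rods, and polyA RNA was sequenced from ribosomes of rods and from the whole retina of mice 2 weeks old. The control animals, called Het here, were RiboTag;Shp2fl/+;i75-Rod-Cre, and the knockout (KO) littermates were RiboTag;Shp2fl/fl;i75-Rod-Cre. Every animal carried the RiboTag allele in homozygous form, which adds an HA tag to the ribosomal protein Rpl22 once Cre has acted, and every animal carried the i75 Cre driven by a rhodopsin promoter, so the controls had also lost a floxed Shp2 copy in the cells with Cre. Ribosomes were captured through the HA tag after cycloheximide perfusion (translating ribosome affinity purification, TRAP), and lysate from before the capture served as whole retina. There were 3 libraries in each of 4 groups, 12 in all: Het rods, KO rods, Het retina and KO retina. All 10 genes passed the filter on low values in each of the comparisons.

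The deposited values were whole numbers already scaled to nearly the same total within a fraction, 16263948 to 16265259 per rod library and 14525527 to 14527992 per retina library. Steps in the low values put the reads behind them at about 11890000 to 25280000 per rod library and at about 9980000 to 19230000 in the 5 retina libraries where the step could be found. Values below were scaled further by TMM, which evens out the bulk of genes between libraries, and fold changes are on the scale of log2 of the scaled value plus 2. A gene was called when the limma adjusted p over all genes tested was below 0.05 and the log2 fold change exceeded 0.5 in either direction. These p-values measure the spread between libraries, and the labels do not state that each library came from a separate animal.

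The targeted gene came first as a check on the labels. Ptpn11 stood at 2669, 2665 and 2619 (Het replicates 1 to 3) and at 2042, 2556 and 2286 (KO replicates 1 to 3) among the TMM-scaled rod libraries. Ptpn11 values of the retina libraries were 2045, 2303 and 1894 for Het, next to 1906, 1873 and 2290.4 for KO. Every KO rod library lay below every Het rod library, and the retina groups overlapped. The KO to Het log2 fold change in rods was -0.23 (SE 0.09, limma adjusted p = 0.0775), so Ptpn11 was not called. With the GC trend of each library removed, as described below, it was -0.36 (SE 0.08, limma adjusted p = 0.0145), still under the fold threshold. The values cover the whole gene and do not measure the deleted stretch by itself, and the controls carry a deleted copy too. The rod markers Nrl, Nr2e3, Gnat1, Pde6b, Cnga1, Rp1 and Esrrb were each called higher in rods than in retina in both genotypes. Of all genes tested, 22.7% were called higher in Het and 26.9% in KO. KO retina replicate 3 stood apart in its pigment epithelium markers (Rpe65, Best1, Ttr, Rgr and Pmel, led by Pmel), which summed to 0.0611% of its total against 0.0023% and 0.0053% in the other KO retina libraries and 0.0106%, 0.0101% and 0.0225% in Het retina. None of those markers was at 0 in all rod libraries, and their part in any result was not tested.

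Positions are from the GENCODE annotation of build GRCm38, while the submitters' processing notes name GRCm39, and all 10 genes matched by gene ID as protein-coding genes. The receptor shutoff genes were Grk1 at chr8:13405081-13421951 (plus) and Sag at chr1:87803680-87845158 (plus). The genes of the GTPase-accelerating complex were Rgs9 at chr11:109225355-109298129 (minus), Gnb5 at chr9:75306288-75345876 (plus) and Rgs9bp at chr7:35578993-35585582 (minus). The calcium sensors were Rcvrn at chr11:67695326-67703333 (plus), Guca1b at chr17:47385393-47392967 (plus) and Guca1a at chr17:47394558-47400584 (minus), the latter pair being neighbours on opposite strands. The cyclases were Gucy2e at chr11:69218117-69237036 (minus) and Gucy2f at chrX:142081160-142196931 (minus). The Rcvrn gene lies within the span of Glp2r on the opposite strand, and Gnb5 overlaps the antisense genes Gm19531 and Gm48677. Whether the counting used strand is not stated, so reads of these overlapping genes cannot be told apart.

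Levels were first ordered per transcript length, as deposited values per kb of transcript, brought to a common sum per library in the manner of TPM. In Het rods Sag, the rod arrestin, stood at 22808 ± 4348 (SD, n = 3), below the 28717 ± 1065 of the transducin alpha subunit. Rcvrn followed at 6396 ± 177 and Guca1b at 4052 ± 321. Grk1 at 1721 ± 131 and Gnb5 at 1609 ± 16.6 were neighbours that did not differ beyond their spread by this length. Rgs9bp at 986 ± 101 and Rgs9 at 852 ± 85.7 were likewise close by this length. Arrestin message exceeded kinase message per length, and the anchor, the RGS protein and the cyclases lay at the lower end. Gucy2e stood at 557 ± 27, Guca1a at 429 ± 78.2 and Gucy2f at 262 ± 39.6. The order depended on the length used, since with the merged exons of each gene Rcvrn (9092 ± 228) came above Sag (6262 ± 1208). With merged exons Grk1 (2070 ± 160) also lay above Gnb5 (1546 ± 19.4), and Rgs9bp (1402 ± 145) above Rgs9 (656 ± 66.7), both beyond their SDs. In KO rods Guca1a (612 ± 86.5) came above Gucy2e (585 ± 49.7), and the SDs of that pair overlapped. In their deposited values the 10 genes together made up 3.05%, 2.72% and 3.21% of the Het rod libraries, 3.83%, 3.82% and 2.92% of the KO rod libraries, 1.70%, 1.42% and 1.28% of Het retina and 1.76%, 1.72% and 1.27% of KO retina.

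Rod ribosomes were compared with whole retina of the same genotype to ask which messages are carried by rods. In Het animals all 10 genes were called higher in rods, where 22.7% of the 16110 genes tested were called higher and 36.4% lower. Each had all 3 rod values above all 3 retina values, which held for 29.5% of genes tested. Their log2 fold changes ran from 0.65 for Rgs9bp to 1.81 for Sag and Guca1a with a median of 1.36, against a median of -0.08 over all genes tested. In KO animals all 10 were again called higher, where 26.9% of 16121 genes were, and the fold changes ran from 0.62 for Rgs9bp to 2.12 for Guca1b with a median of 1.55 against 0.01. Rod values were all above retina values for all 10 genes and for 34.1% of genes tested, and in the deposited values for 9 of the 10 and for 18.07%. Deposited totals were higher in rod than in retina libraries, so the deposited values of the fractions are not on a common total. Rods make up much of the whole retina as well, and in bulk samples a lower share of rods and less RNA per rod cannot be told apart. With the library total as the only scaling, the median of all genes moved by -0.44 in Het and by -0.56 in KO, and the share of calls that were higher went from 38.4% to 13.6% in Het and from 42.8% to 12.7% in KO. Under that scaling 9 of the 10 genes were still called higher in each genotype, and Rgs9bp was not. Of all genes, 1168 were then called higher in Het and 1144 in KO, against 3650 and 4341 with TMM.

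**Figure D1:**
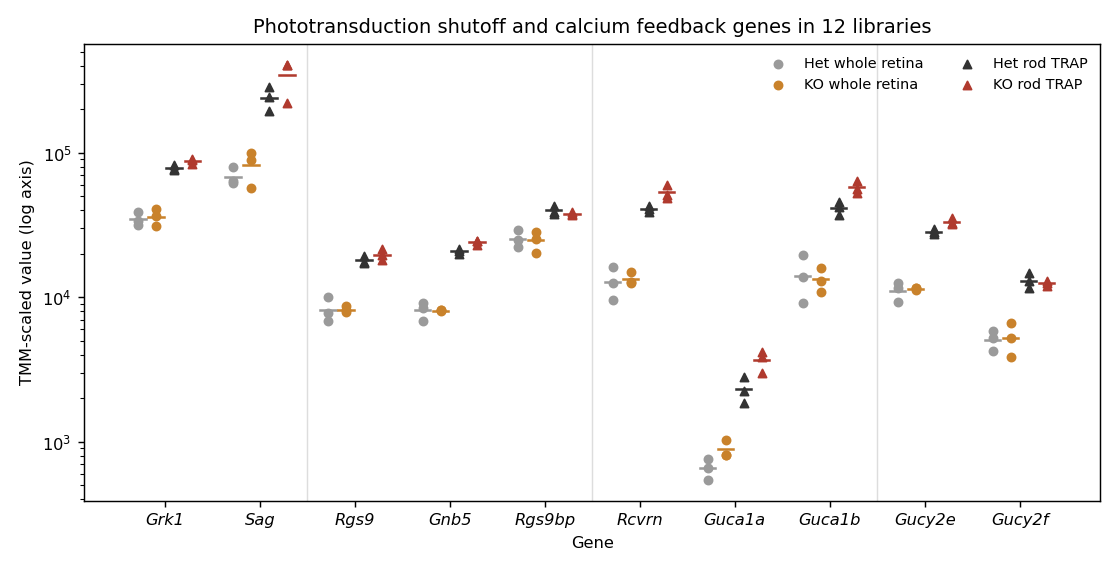
TMM-scaled values of the 10 shutoff and calcium feedback genes in each of 12 libraries on a log axis, with circles for whole retina, triangles for rod TRAP and short lines for the mean of 3 libraries. For every gene the 6 rod libraries lie above the 6 retina libraries, and KO rod replicate 3 of Sag lies apart from the other KO rod values.

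KO rods were compared with Het rods to ask which ribosome-bound messages differ when both Shp2 copies are floxed. Only Guca1a of the 10 genes was called, higher in KO, while 12.1% of the 13055 genes tested were called higher and 1.55% lower. Of all genes, 1579 were called higher and 202 lower, which became 1202 and 584 with library-total scaling, 0 in all with the 12 libraries in 1 fit, and 1067 in all without Het rod replicate 1. The fold changes of the 10 genes ran from -0.09 to 0.65 with a median of 0.20 against 0.02 for all genes tested. In 6 of the 10, all KO values lay above all Het values, against 25.3% of genes tested. That count rests on TMM, since in the deposited values, scaled by library total, only Rcvrn and Guca1b (2 of 10) had all KO values above, against 19.01% of genes, and Rgs9bp had all KO values below, as did 27.18%. Guca1b and Rcvrn had limma adjusted p below 0.05 with fold changes under the threshold. The size of these changes went with base composition. The rod libraries differed in how their values moved with transcript GC content, the change from the lowest to the highest decile of genes by GC being -0.81, -0.23 and -0.42 on the log2 scale for the Het rod libraries but 0.42, 0.76 and 0.28 for the KO rod libraries. Every KO rod library lay above every Het rod library in this trend, so in rods the genotype and the GC trend cannot be told apart. Retina libraries showed no such split, at -0.24, 0.86 and -0.84 for Het against 0.01, -0.63 and 0.90 for KO. Across the 10 genes the fold change had a Spearman correlation of 0.87 with GC content, and across 12907 genes with known GC it was 0.70. Genes are not independent replicates, and they share the same 6 libraries. After the GC trend of each library was removed, which takes out the relation to GC by construction, none of the 10 was called, and their fold changes ran from -0.05 to 0.29. Over all genes the calls then numbered 191 higher and 162 lower, against 1579 and 202 before.

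**Figure D2:**
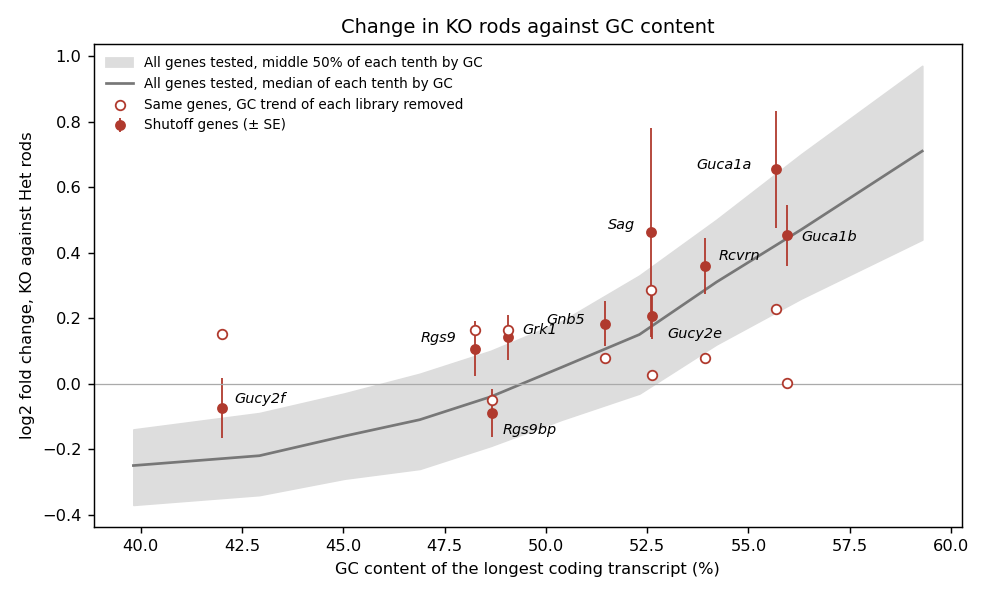
Log2 fold change of KO over Het rods (vertical) against transcript GC content in percent (horizontal), with the median and middle 50% of all genes tested in each decile by GC in grey, the 10 genes with SE as filled circles, and the same genes after removal of each library's GC trend as open circles. The filled points climb with GC from Gucy2f at 42.0% to Guca1a at 55.7% and Guca1b at 55.9%, and the open points lie between -0.05 and 0.29.

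Grk1, rhodopsin kinase, begins receptor shutoff. Grk1 stood at 82129, 77374 and 75996 (Het replicates 1 to 3) and at 88529, 83915 and 91110.5 (KO replicates 1 to 3) among the TMM-scaled rod libraries. Grk1 values of the retina libraries were 39130.3, 33522 and 31652 for Het, next to 36756, 40793 and 31164 for KO. All 6 rod values lay above all retina values, and the KO rod values were all above the Het rod values after TMM, though the deposited values overlapped (75219, 70237 and 78553 in KO, 77260, 70802 and 70538 in Het). Grk1 had a rod to retina log2 fold change of 1.18 (SE 0.11, limma adjusted p = 3.16e-05) for Het animals and of 1.28 (SE 0.13, limma adjusted p = 3.86e-05) for KO animals. For Grk1 the KO to Het log2 fold change of rods was 0.14 (SE 0.07, limma adjusted p = 0.15), which did not pass. Its GC content of 49.1% put it in a decile whose genes had a median change of -0.04, and with the GC trend removed its change was 0.17 (SE 0.06, limma adjusted p = 0.0885).

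Sag, the arrestin that caps phosphorylated rhodopsin, varied widely between the KO rod libraries. Sag stood at 242035, 194643 and 285756 (Het replicates 1 to 3) and at 406292, 406563 and 222113 (KO replicates 1 to 3) among the TMM-scaled rod libraries. Sag values of the retina libraries were 79510.1, 63921 and 61772 for Het, next to 98939, 89547 and 56989.8 for KO. KO rod replicates 1 and 2 were far above the rest, while KO rod replicate 3 fell within the Het range, so the genotypes overlapped. In retina KO replicate 3 was the lowest library. KO rod replicate 3 was also the rod library with the most pigment epithelium marker signal, the deposited values of those markers summing to 316 in it, to 28 and 81 in the other KO rod libraries and to 88, 108 and 211 in Het rods, and whether this bears on Sag was not tested. Sag had a rod to retina log2 fold change of 1.81 (SE 0.16, limma adjusted p = 2.45e-05) for Het animals and of 2.06 (SE 0.28, limma adjusted p = 0.000233) for KO animals. For Sag the KO to Het log2 fold change of rods was 0.46 (SE 0.32, limma adjusted p = 0.367), with a 95% confidence interval of -0.39 to 1.31. Without KO rod replicate 3 the change was 0.75 (SE 0.16, limma adjusted p = 0.0185), which would be called. Sag had a GC content of 52.6%, in a decile whose median change was 0.15. Its change over all rod libraries with the GC trend removed was 0.285 (SE 0.323, limma adjusted p = 0.681).

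Rgs9 speeds GTP hydrolysis by transducin, and its fold between rods and retina was close to that of Grk1. Rgs9 stood at 19434, 17604 and 17244 (Het replicates 1 to 3) and at 19636, 18055 and 21615 (KO replicates 1 to 3) among the TMM-scaled rod libraries. Rgs9 values of the retina libraries were 9979, 7821 and 6809 for Het, next to 8162, 8678 and 7856 for KO. Rods exceeded retina throughout and the genotypes overlapped in both fractions. Rgs9 had a rod to retina log2 fold change of 1.16 (SE 0.15, limma adjusted p = 0.000179) for Het animals and of 1.25 (SE 0.11, limma adjusted p = 2.07e-05) for KO animals. For Rgs9 the KO to Het log2 fold change of rods was 0.11 (SE 0.08, limma adjusted p = 0.385). Gnb5, the beta subunit that pairs with it, was tight within each group of rods. Gnb5 stood at 19967, 21068 and 21447 (Het replicates 1 to 3) and at 23072, 24387 and 24435 (KO replicates 1 to 3) among the TMM-scaled rod libraries. Gnb5 values of the retina libraries were 8466, 9140.2 and 6841 for Het, next to 8118, 7994 and 8113 for KO. The KO rod values were all above the Het rod values after TMM, by a gap that was small beside that between rods and retina, and in the deposited values KO replicate 1 (19603) lay below Het replicate 3 (19907). Gnb5 had a rod to retina log2 fold change of 1.36 (SE 0.13, limma adjusted p = 2.88e-05) for Het animals and of 1.56 (SE 0.10, limma adjusted p = 3.05e-06) for KO animals. For Gnb5 the KO to Het log2 fold change of rods was 0.18 (SE 0.07, limma adjusted p = 0.0718).

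Rgs9bp, the membrane anchor of the complex, had the smallest rod to retina difference of the 10 genes. Rgs9bp stood at 42862, 39099 and 37680.4 (Het replicates 1 to 3) and at 39157, 37057 and 37727 (KO replicates 1 to 3) among the TMM-scaled rod libraries. Rgs9bp values of the retina libraries were 29166, 22238 and 25069 for Het, next to 25506, 28463 and 20346 for KO. The lowest rod value was above the highest retina value, with a narrow gap between them, and in the deposited values KO rods overlapped KO retina. Rgs9bp had a rod to retina log2 fold change of 0.65 (SE 0.12, limma adjusted p = 0.00184) for Het animals and of 0.62 (SE 0.14, limma adjusted p = 0.0041) for KO animals. With library-total scaling the rod to retina change was 0.21 (limma adjusted p = 0.255) in Het and 0.061 (limma adjusted p = 0.765) in KO. Without KO retina replicate 3, the library with the most pigment epithelium marker signal, the KO change was 0.45 (SE 0.08, limma adjusted p = 0.00134), below the fold threshold. For Rgs9bp the KO to Het log2 fold change of rods was -0.09 (SE 0.07, limma adjusted p = 0.41), with overlapping groups.

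Rcvrn, the calcium sensor that restrains rhodopsin kinase in the dark, was among the genes with the largest rod to retina difference. Rcvrn stood at 38653, 43099 and 40988 (Het replicates 1 to 3) and at 51386, 59894 and 48919 (KO replicates 1 to 3) among the TMM-scaled rod libraries. Rcvrn values of the retina libraries were 12572, 16132 and 9557 for Het, next to 12702, 12593 and 15059 for KO. KO rods lay above Het rods in all 3 libraries, and the retina groups overlapped. Rcvrn had a rod to retina log2 fold change of 1.71 (SE 0.18, limma adjusted p = 5.42e-05) for Het animals and of 1.98 (SE 0.12, limma adjusted p = 3.32e-06) for KO animals. For Rcvrn the KO to Het log2 fold change of rods was 0.36 (SE 0.09, limma adjusted p = 0.0121), a change under the fold threshold. With the GC trend removed it was 0.08 (SE 0.06, limma adjusted p = 0.463), and the median change of genes in its decile by GC, which contained its 53.9%, was 0.31.

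Guca1a encodes GCAP1, a guanylate cyclase-activating protein. Guca1a stood at 1864, 2254 and 2814 (Het replicates 1 to 3) and at 3857, 4186 and 2979.7 (KO replicates 1 to 3) among the TMM-scaled rod libraries. Guca1a values of the retina libraries were 662, 762 and 544 for Het, next to 1031, 811 and 816 for KO. The KO values lay above the Het values in rods and in retina alike, the closest rod values being 2814 in Het replicate 3 and 2979.7 in KO replicate 3. In the deposited values these rod libraries stood at 2612 and 2569, so the rod groups overlapped without TMM, while the retina groups stayed apart. Guca1a had a rod to retina log2 fold change of 1.81 (SE 0.18, limma adjusted p = 4.58e-05) for Het animals and of 2.04 (SE 0.16, limma adjusted p = 1e-05) for KO animals. For Guca1a the KO to Het log2 fold change of rods was 0.65 (SE 0.18, limma adjusted p = 0.0354), with a 95% confidence interval of 0.24 to 1.07. The call was lost when Het rod replicate 1 (0.51, limma adjusted p = 0.0922), Het rod replicate 2 (0.61, limma adjusted p = 0.114), KO rod replicate 1 (0.61, limma adjusted p = 0.105) or KO rod replicate 2 (0.51, limma adjusted p = 0.134) was left out. It was also lost, with folds near the same, with median-of-ratios scaling (0.62, limma adjusted p = 0.0523), no filter (0.654, limma adjusted p = 0.109), no trend and no robust option (0.654, limma adjusted p = 0.0757), the replicate block (0.654, limma adjusted p = 0.146) and all 12 libraries in 1 fit (0.674, limma adjusted p = 0.215). With the GC trend removed the change was 0.23 (SE 0.13, limma adjusted p = 0.371). Genes in the same decile by GC had a median change of 0.47.

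Guca1b encodes GCAP2, and had the highest rod to retina fold of the 10 genes in KO animals. Guca1b stood at 36922, 45949 and 41976 (Het replicates 1 to 3) and at 56499.6, 63612 and 52999.8 (KO replicates 1 to 3) among the TMM-scaled rod libraries. Guca1b values of the retina libraries were 13866, 19479.5 and 9115 for Het, next to 12991, 10925 and 16001 for KO. KO rods were all above Het rods, and in retina the Het values spanned the KO values. Guca1b had a rod to retina log2 fold change of 1.62 (SE 0.25, limma adjusted p = 0.000487) for Het animals and of 2.12 (SE 0.15, limma adjusted p = 5.69e-06) for KO animals. For Guca1b the KO to Het log2 fold change of rods was 0.45 (SE 0.09, limma adjusted p = 0.00669), under the fold threshold. With the GC trend removed it was 0.003 (SE 0.05, limma adjusted p = 0.98). Without KO rod replicate 3 it was 0.51 (SE 0.10, limma adjusted p = 0.00446), just over the threshold, so Guca1a, Sag and Guca1b would then be called.

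The retinal guanylate cyclases remake cGMP under control of the GCAPs. Gucy2e stood at 28213, 29871 and 27422 (Het replicates 1 to 3) and at 32021, 32556 and 35552 (KO replicates 1 to 3) among the TMM-scaled rod libraries. Gucy2e values of the retina libraries were 11647, 12493 and 9296 for Het, next to 11635, 11646 and 11249.7 for KO. Rods were above retina, and KO rods were above Het rods after TMM only, since deposited values of 27207 and 27249 in KO lay below 27334 in Het replicate 2. Gucy2e had a rod to retina log2 fold change of 1.36 (SE 0.13, limma adjusted p = 3.13e-05) for Het animals and of 1.53 (SE 0.10, limma adjusted p = 4.24e-06) for KO animals. For Gucy2e the KO to Het log2 fold change of rods was 0.21 (SE 0.07, limma adjusted p = 0.0534). Gucy2f, on the X chromosome, encodes the other photoreceptor cyclase. Gucy2f stood at 14632, 12993 and 11541 (Het replicates 1 to 3) and at 12946, 11977 and 12622 (KO replicates 1 to 3) among the TMM-scaled rod libraries. Gucy2f values of the retina libraries were 5847, 4219 and 5200.3 for Het, next to 5267, 6600.2 and 3868 for KO. Its KO rod values fell inside the Het range. Gucy2f had a rod to retina log2 fold change of 1.36 (SE 0.15, limma adjusted p = 6.92e-05) for Het animals and of 1.28 (SE 0.19, limma adjusted p = 0.000335) for KO animals. For Gucy2f the KO to Het log2 fold change of rods was -0.07 (SE 0.09, limma adjusted p = 0.578). Its GC content of 42.0% was the lowest of the 10, in a decile with a median change of -0.22, and its change with the GC trend removed was 0.15 (SE 0.07).

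In whole retina, KO was compared with Het to ask whether the tissue as a whole differed at this age. Of 16863 genes tested limma called 0 (0%), and 140 (0.830%) had an unadjusted p below 0.05. None of the 10 genes was called, with fold changes from -0.03 to 0.45. Guca1a was the exception in having all KO values above all Het values, which held for 1.75% of genes tested, at a log2 fold change of 0.45 (SE 0.17, limma adjusted p = 1.0). The difference between the genotype effects in rods and in retina was tested as an interaction over 12 libraries. It called 0 of 17192 genes (0%), with 517 (3.01%) at an unadjusted p below 0.05, and none of the 10 genes was among either. Guca1b had the largest difference, 0.51 with a 95% confidence interval of -0.18 to 1.21. The comparisons of rods share their libraries with the comparisons above and are not independent of them.

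Ratios of 2 members within a library do not depend on scaling, and 6 pairs were compared between the 6 rod and the 6 retina libraries by two-sided exact permutation tests, with Benjamini-Hochberg adjustment over the 6. The ratios used deposited values. Rgs9bp to Rgs9, anchor to RGS protein, was 2.21, 2.22 and 2.19 for Het rods, 1.99, 2.05 and 1.75 for KO rods, 2.92, 2.84 and 3.68 for Het retina and 3.12, 3.28 and 2.59 in KO retina. Every rod value was below every retina value. KO rods were also below Het rods, a split of 3 against 3 that cannot go below an exact permutation p of 0.1. The rod to retina log2 difference was -0.57 (exact permutation p = 0.00217, the smallest that 6 against 6 can give, adjusted p = 0.013), lower in 6 of 6 rod libraries. Sag to Grk1, arrestin to kinase, was 2.95, 2.52 and 3.76 for Het rods, 4.59, 4.84 and 2.44 for KO rods, 2.03, 1.91 and 1.95 for Het retina and 2.69, 2.20 and 1.83 in KO retina. Rods were higher by 0.70 on the log2 scale (exact permutation p = 0.00649, adjusted p = 0.013), with 4 of 6 rod libraries above all retina libraries, and Het rod replicate 2 and KO rod replicate 3 inside the retina range. Recoverin to kinase was higher in rods by 0.62 (exact permutation p = 0.00649, adjusted p = 0.013), and Gnb5 to Rgs9 by 0.26 (exact permutation p = 0.0152, adjusted p = 0.0227), each with overlap. Guca1b to Guca1a differed by -0.05 (exact permutation p = 0.771, adjusted p = 0.771) and Gucy2e to Gucy2f by 0.12 (exact permutation p = 0.437, adjusted p = 0.525). The cyclase pair differed between genotypes in rods without overlap, at 1.93, 2.30 and 2.38 for Het against 2.47, 2.72 and 2.82 for KO, where 3 against 3 cannot go below an exact permutation p of 0.1. The members of that pair differ in GC content, 52.6% and 42.0%. Their KO to Het log2 fold changes in rods were 0.207 for Gucy2e and -0.075 for Gucy2f. With the GC trend removed they were 0.027 (SE 0.066) and 0.153 (SE 0.068), so the order of the pair turned. Rod and retina libraries of a genotype may share animals, which these tests do not take into account.

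Other lists place the shutoff genes within phototransduction. All 10 genes of the rod activation cascade were called higher in Het rods than in Het retina, with a median log2 fold change of 1.90, against 1.36 for the 10 shutoff genes. For the counts of this paragraph, 22.7% of all genes tested were called higher and 36.4% lower. Gnat1 was at 1.96 (SE 0.13). All 11 cone phototransduction genes were called lower, with a median of -1.04, for example Opn1sw, the short-wavelength opsin, at -1.04 (SE 0.19). Of 10 accessory genes, 7 were called higher and 2 lower. Phosducin (Pdc) was at 2.14 (SE 0.13) and Unc119, which carries lipidated transducin, at 1.44 (SE 0.22), whereas the calmodulin gene Calm3 (-1.37, SE 0.24) was lower. The relatives of the 10 genes mostly went the other way. Among 8 other receptor kinases and arrestins 5 were called lower and none higher, beta-arrestin Arrb1 at -4.84 (SE 0.19) and cone arrestin Arr3, counted in the cone list too, at -1.20 (SE 0.18). All 6 other R7 RGS proteins and anchors were called lower with a median of -4.50, including Rgs7bp at -4.35 (SE 0.19) and Gpr179 at -5.34 (SE 0.29). Of 8 other neuronal calcium sensors 7 were called lower, such as Vsnl1 at -4.76 (SE 0.15), and Hpcal1 was called higher at 1.04 (SE 0.26). Of the 6 other guanylate cyclases that passed the filter 5 were called lower, the soluble cyclase subunits Gucy1a1 at -5.24 (SE 0.15) and Gucy1b1 at -5.52 (SE 0.25) among them. For KO animals the activation cascade had 10 of 10 called higher with a median of 1.93, and the cone list 10 of 11 called lower with a median of -0.91, where 26.9% of all genes tested were called higher and 36.1% lower.

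**Figure D3:**
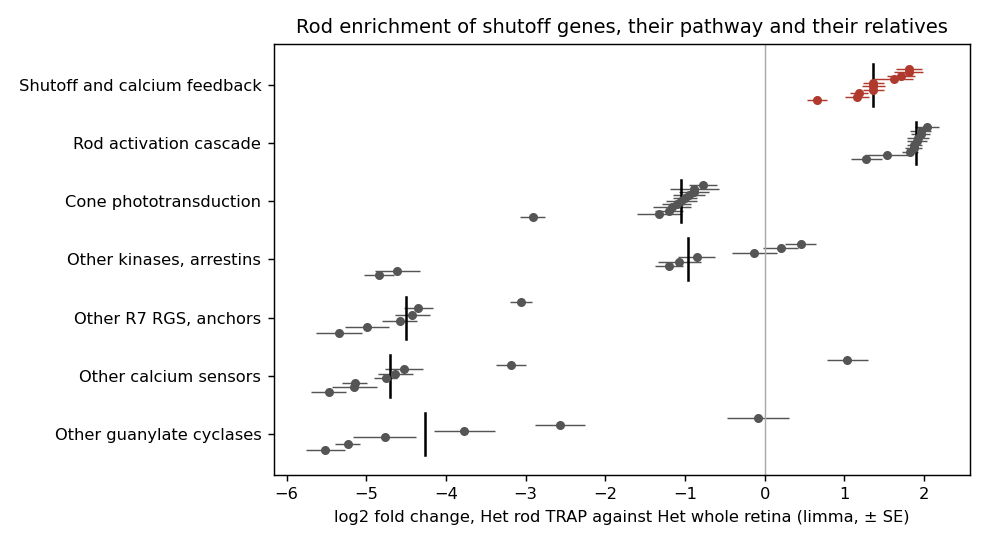
Log2 fold change of Het rods over Het retina, with SE, for the shutoff and calcium feedback genes (red), the rod activation cascade, cone genes and the relatives of the shutoff genes (grey), 1 row per list and a black line at each median. The shutoff genes lie between 0.65 and 1.81, and the medians of the relatives lie between -0.96 and -4.70.

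In KO against Het rods, 2 of the 10 activation cascade genes were called higher, where 12.1% of all genes tested were. Pde6g, the inhibitory phosphodiesterase subunit, had deposited values of 53120, 76343 and 69444 among Het rods against 97245, 113089 and 90311 among KO rods, a log2 fold change of 0.71 (SE 0.15, limma adjusted p = 0.0158). Cngb1, the channel beta subunit, had 19825, 21452 and 21577 for Het against 29095, 32307 and 27392 for KO, a change of 0.60 (SE 0.09, limma adjusted p = 0.00227). Of the accessory genes, Rd3, which restrains the retinal cyclases and carries them to the outer segment, and Calm3 were called higher. Rd3 had deposited values of 3843, 4804 and 4539 among Het rods against 6191, 6254 and 5816 among KO rods, a change of 0.58 (SE 0.10, limma adjusted p = 0.00299). Calm3 had 1305, 1624 and 1461 for Het against 2132, 2260 and 1704 for KO, a change of 0.58 (SE 0.13, limma adjusted p = 0.0101). With library-total scaling Cngb1 (0.496), Rd3 (0.475) and Calm3 (0.468) fell under the fold threshold. With all 12 libraries in 1 fit none of these 4 was called, though their folds held at 0.733 for Pde6g, 0.623 for Cngb1, 0.602 for Rd3 and 0.596 for Calm3 (limma adjusted p from 0.2153 to 0.2212). With the GC trend removed none was called either. Rd3 was then at 0.49 (SE 0.08, limma adjusted p = 0.00379), just under the fold threshold, Cngb1 at 0.33 (SE 0.06, limma adjusted p = 0.00649), Pde6g at 0.28 (SE 0.07, limma adjusted p = 0.0399) and Calm3 at -0.063 (SE 0.08, limma adjusted p = 0.669). Changes under the fold threshold with limma adjusted p below 0.05 went both ways in these lists. Those lower in KO included Calm2 (-0.39, limma adjusted p = 0.00476), Gngt1 (-0.35, limma adjusted p = 0.00736), Pdc (-0.335, limma adjusted p = 0.0083) and Cnga1 (-0.29, limma adjusted p = 0.0209). Those higher in KO included Aipl1 (0.43, limma adjusted p = 0.0294), Unc119 (0.43, limma adjusted p = 0.0298) and Ppef2 (0.33, limma adjusted p = 0.0143). With the GC trend removed Unc119 turned to -0.314 (SE 0.059, limma adjusted p = 0.00743). The others named here then had limma adjusted p above 0.05. Calm2 was at -0.172, Gngt1 at -0.069, Pdc at -0.065, Cnga1 at -0.071, Aipl1 at 0.328 and Ppef2 at 0.185. Of the cone genes and of the relatives none was called in this comparison, though the cone gene Gnb3 (0.53, SE 0.18, limma adjusted p = 0.0688) would be with the replicate block (limma adjusted p = 0.0205). With the GC trend removed Gnb3 was at 0 (SE 0.146, limma adjusted p = 0.9993).

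The 10 genes were high in rods together, so their promoters were searched. RefSeq promoter windows of build GRCm38.p6 were held for 7 of the 10, with entries missing for Rgs9bp, Rcvrn and Guca1b. The letters TAATCC, the core bound by homeodomain factors such as CRX, were searched on both strands. In the 100 bases before the RefSeq start they were found in 5 of the 7 windows and in 2.30% of 32851 windows of the same length, and in 250 bases in 5 of the 7 and in 6.25%. The variant TAAGCC was found in 1 of the 7 windows of 250 bases (8.20% of all) and the letters TGCTGA, part of the element bound by NRL, in 2 of the 7 (16.08% of all), with neither in the windows of 100 bases. None of the 3 was in the Grk1 window, and in the Rgs9 window TGCTGA was the only match. A match describes the letters and says nothing of binding. The 5 windows that hold TAATCC are shown 5′ to 3′, ending at the base before the start that the RefSeq window uses, with TAATCC or its reverse complement GGATTA in capitals, from chr1:87803580-87803679 (plus strand), chr9:75306188-75306287 (plus strand), chr11:69237023-69237122 (minus strand), chr17:47400607-47400706 (minus strand) and chrX:142196937-142197036 (minus strand). For Gucy2e, Guca1a and Gucy2f that start is not the GENCODE gene end printed above. The match lay 87 bases before the RefSeq start in Sag, 6 in Gnb5, 42 in Gucy2e and 57 in Guca1a, and Gucy2f held 2, at 84 and 59.
Sag: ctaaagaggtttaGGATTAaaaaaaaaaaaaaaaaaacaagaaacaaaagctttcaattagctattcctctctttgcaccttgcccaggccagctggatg
Gnb5: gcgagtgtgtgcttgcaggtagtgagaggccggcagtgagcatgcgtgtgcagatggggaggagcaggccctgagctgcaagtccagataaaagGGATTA
Gucy2e: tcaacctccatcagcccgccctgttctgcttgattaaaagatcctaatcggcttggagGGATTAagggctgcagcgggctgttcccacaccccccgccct
Guca1a: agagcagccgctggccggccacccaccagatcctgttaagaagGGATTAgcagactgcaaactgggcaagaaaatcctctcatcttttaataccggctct
Gucy2f: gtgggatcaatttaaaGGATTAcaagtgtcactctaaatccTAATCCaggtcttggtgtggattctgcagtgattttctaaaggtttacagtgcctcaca

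The genes most like the 10 were sought among 10411 genes with a mean scaled value of at least 100, by Pearson correlation with the mean of the centred log2 values of the 10 genes. Over 12 libraries, where rods and retina form separate clusters that set the coefficient, the nearest were Abca4 and Fam149a (0.997 each), Gpkow (0.996), and Acsl6 and Eif2ak3 (0.995 each). With so few libraries and so many genes, coefficients of this size describe the libraries only.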

How the data were processed

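Polyadenylated RNA from rod TRAP and whole retina was converted to cDNA with a SMART-Seq V4 kit. The submitters' processing notes name CASAVA 1.8.2, HISAT2, DESeq2, edgeR and build GRCm39. The authors deposited 1 table of 56748 genes, whose values are signal: whole numbers that had been scaled per library and rounded, judged from totals that differ by 0.0081% within rods and 0.017% within retina, so no count model was used. Genes with a value of about 10 in at least 3 libraries and a sum of at least 15 were tested with limma 3.58.1 (trend and robust options) in R 4.3.3 on log2(TMM-scaled value + 2), only the groups compared entering a fit, with Benjamini-Hochberg adjustment over all genes tested. The code was tested on simulated data. Transcript length and GC came from GENCODE for GRCm38, which held 91.8% of the deposited gene IDs. GC was known for 12907 of the 13055 genes tested in KO against Het rods. The GC trend of each library was removed by lowess with span 0.3. Correlations of the deviations of same-numbered rod and retina libraries from their group means were 0.47, 0.41 and 0.25 in Het. Libraries with different numbers had a mean of -0.19. Deviations from means of 3 libraries are tied to each other, so these values cannot decide whether the numbers pair the libraries. The labels do not state whether same-numbered libraries share an origin. Named genes were the 10 members, the 2 highest genes of every other list and each list gene called between genotypes, except some that are not reported here. Members and lists were chosen with earlier results of these data known. Alternatives covered scaling, pseudocount, filter, moderation, each library left out, the replicate block, GC and the libraries in the fit. Exact tests used SciPy 1.17.1.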

Additional observations from a re-analysis of the deposited data

How the results depend on the processing

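Het rods against Het retina and KO rods against KO retina gave all 10 genes as higher under every alternative tried except library-total scaling in each genotype and, in KO, the fit without KO retina replicate 3, where Rgs9bp was not called. Leaving out 1 library gave between 6540 and 9570 called genes in KO rods against KO retina, which had 10154, with the lowest count without KO retina replicate 1.

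In KO against Het rods the count of members called, 1 in the main analysis, was 0 with median-of-ratios scaling, with no filter, with no trend and no robust option, with the GC trend removed, and with all 12 libraries in 1 fit, and ran from 0 to 3 with 1 library left out. Guca1a had limma adjusted p between 0.00752 and 0.371 in fits without the block, and the cause of the lost calls was not tested. The count of genes called, 1781, became 353 with the GC trend removed and 0 with all 12 libraries in 1 fit, and ran from 1067 to 1966 with 1 library left out, lowest without Het rod replicate 1 and next lowest (1186) without KO rod replicate 2. Outside the members, the call of Pde6g was lost with no filter (limma adjusted p = 0.116) and, like those of Calm3 (limma adjusted p = 0.061) and Apoe (limma adjusted p = 0.051), with no trend and no robust option (limma adjusted p = 0.051). Leaving out Het rod replicate 1 put Rd3 (0.483) and Calm3 (0.491) under the fold threshold, and leaving out KO rod replicate 2 did so for Cngb1 (0.489) and Calm3 (0.444). In KO against Het retina limma called 1 gene with no trend and no robust option and 0 to 1 with 1 library left out, and in the interaction 0 to 1.

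Correlations of same-numbered libraries were 0.33, -0.01 and 0.18 between KO rods and KO retina, where different numbers had a mean of -0.08. They were 0.18, 0.03 and 0.03 between Het and KO rods, and 0.40, -0.59 and -0.14 between Het and KO retina. With 3 pairs each, these values cannot decide whether the numbers pair the libraries. With the replicate block, 0 members were called between KO and Het rods (Guca1a limma adjusted p = 0.146, its fold unchanged at 0.654 while the SE went from 0.178 to 0.237), and 407 genes with the block and the GC trend removed together. In Het rods against Het retina the block changed no call of a member. With the block and the GC trend removed, Gucy2f in KO against Het rods was at 0.15, Calm3 at -0.063 and Gnb5 in retina at 0, and the interaction values were 0.021 for Rgs9bp, -0.10 for Guca1a and 0.12 for Gucy2f.

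Changes of sign occurred in values that were not called, apart from Calm3. With library-total scaling Ptpn11 was at -0.089 in Het rods against retina and -0.39 in KO, Rgs9 at -0.002 in KO against Het rods, Gnb5 at -0.003 in KO against Het retina, and the interaction at -0.021 for Grk1 and -0.023 for Rgs9. With the GC trend removed and no block, KO against Het rods gave 0.15 for Gucy2f and -0.063 for Calm3, Gnb5 in retina was at 0, and the interaction was 0.021 for Rgs9bp, -0.10 for Guca1a and 0.12 for Gucy2f. Other list genes that turned in rods included Unc119, from 0.427 to -0.314 (limma adjusted p = 0.00743), and Nrl, from 0.052 to -0.269 (limma adjusted p = 0.0125). Gnat1 went from 0.198 to -0.084. Unc119, Nrl and Gnat1 were called in neither fit. With all 12 libraries in 1 fit Gnb5 in retina was at -0.003.

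With 1 library left out, Gucy2f in KO against Het rods ran from -0.16 to 0.015. In KO against Het retina the ranges were -0.025 to 0.18 for Grk1, -0.082 to 0.20 for Rgs9, -0.10 to 0.075 for Gnb5, -0.15 to 0.10 for Rgs9bp, -0.066 to 0.28 for Rcvrn, -0.30 to 0.215 for Guca1b, -0.047 to 0.135 for Gucy2e, -0.15 to 0.24 for Gucy2f and -0.12 to 0.023 for Ptpn11. In the interaction they were -0.11 to 0.14 for Grk1, -0.10 to 0.54 for Sag, -0.15 to 0.17 for Rgs9, -0.27 to 0.031 for Rgs9bp and -0.39 to 0.031 for Gucy2f. Fits of the ratios with libraries left out or within a genotype were chosen after seeing the data. Guca1b to Guca1a ran from -0.15 to 0.053 with 1 library left out and was 0.083 within KO libraries, and Gucy2e to Gucy2f was -0.001 within Het libraries. The cause of these changes was not tested. The read depth of Het retina replicate 3 is unknown.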

Other observations

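Markers of other retinal cells give the background of the rod libraries. Müller glia markers (Glul, Rlbp1, Slc1a3, Apoe, Aqp4, Sox9, Dkk3 and Crym, led by Glul) summed to between 0.0083% and 0.0126% of the deposited total in rod libraries and to between 0.3037% and 0.439% in retina libraries, and all 8 were called lower in Het rods. Cone markers (Opn1sw, Opn1mw, Arr3, Gnat2, Pde6c, Pde6h, Gngt2 and Cnga3, led by Opn1sw) summed to between 0.0288% and 0.0466% in rods and 0.0953% and 0.1132% in retina, a far smaller gap. All 8 were called lower in Het rods too. The bipolar list was uneven, since Prkca (0.04, SE 0.15) did not differ between Het rods and Het retina past the threshold and Otx2 (0.87, SE 0.10) was called higher in rods, while 6 of its 8 genes were called lower. Of all genes tested, 36.4% were called lower in Het rods and 22.7% higher.

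All 7 amacrine, all 7 ganglion and all 4 horizontal cell markers, and the 4 microglia and 4 pigment epithelium markers that passed the filter, were likewise called lower on the Het rod side, where 36.4% of all genes tested were. The amacrine list had a median of -4.85, the ganglion list -5.14, the horizontal list -3.75, the microglia list -4.50 and the pigment epithelium list -3.44. In KO rods against KO retina 1 of 5 pigment epithelium markers (Best1) was called lower, with a list median of -3.04, and Rpe65, Ttr, Rgr and Pmel were lower with limma adjusted p from 0.0608 to 0.128. In that comparison 36.1% of all genes tested were called lower. In KO against Het rods, where 12.1% of all genes tested were called higher, 1 of the 7 Müller glia markers tested (Apoe) and 1 of the 5 amacrine markers tested (Slc6a9) were called higher, and no marker on the other lists, though Sncg (limma adjusted p = 0.0559) would be with the replicate block (limma adjusted p = 0.0198). Apoe had deposited values of 36, 56 and 65 among Het rods against 77, 112 and 118 among KO rods, and Slc6a9, a glycine transporter, had 275, 263 and 208 for Het against 405, 407 and 349 for KO. Neither was called with the GC trend removed, at 0.33 (SE 0.22, limma adjusted p = 0.40) for Apoe and 0.21 (SE 0.14, limma adjusted p = 0.396) for Slc6a9. Sncg was then at 0.7 (SE 0.443, limma adjusted p = 0.386).

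Nearest single genes, chosen after their values were seen, differed between members. Over 12 libraries Gnb5 was nearest to Gnat1 (Pearson r = 0.999), Guca1b was close to Unc119 and Prph2 (0.997 each), and Sag was nearest to Tmem237 (0.994), with Tmem38b next at 0.979.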
